A study of Pan troglodytes with 38 samples.

Results

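The 10 genes described here mark T cells and natural killer (NK) cells, and were chosen by name: CD2, CD3D, CD3E, LCK, CD8A, GZMA, NKG7, PTPRC, IL7R and CCL5. They are 10 of the 31373 annotated chimpanzee genes that were counted. The counts are of RNA from post-mortem heart tissue of 38 chimpanzees, with 1 library per animal. The labels give no treatment, and the virus notes of some animals are given further on. RNA of 21 animals was extracted in 2018 in 1 batch, and that of the other 17, the earlier group, 2 years before in 4 batches of 2, 3, 3 and 9 animals. The earlier libraries had been published before and the 2018 libraries were new, so extraction year and library series cannot be told apart. Females made up 22 of the animals and males 16, at ages of 10 to 57 years, with no age given for 4. RNA integrity number (RIN, a measure of RNA quality) ranged from 4.2 to 7.6 in the earlier group, with a median of 6.2, and from 2.5 to 8.4 in 2018, with a median of 5.4.

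Levels are given in CPM, the reads of a gene scaled to a common total by the library's reads on exons shared by human and chimpanzee. Those totals ran from 14408012 to 81603350 reads, with a median of 41226040. At the lowest total 1 CPM is 14.4 counts, with a counting error of 26.3%, and at the median total it is 41.2 counts, with an error of 15.6%. Reads were not divided by gene length, so levels are compared between animals and never between genes.

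T cells recognise antigen through a receptor that signals by way of the CD3 chains and the kinase LCK, and cytotoxic T cells and NK cells kill target cells with granule proteins. NK cells share the granule genes but lack the T cell receptor. In the heart these cells are a small population among muscle, vessel and connective tissue cells.

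The heart label was checked against cardiomyocyte markers, and the summed level of 10 cardiomyocyte genes ran from 13942 CPM in Little_R to 133946 CPM in 456, with a median of 98666. All 10 T and NK cell genes had at least 1 read in each of the 38 animals and all 10 passed the filter on low counts. Their summed level had a median of 45.01 CPM, from 9.40 in 4X0339 to 466 in 4x0043. In bulk tissue, fewer T or NK cells and less RNA per cell cannot be told apart.

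CD3D (ENSPTRG00000004339) and CD3E (ENSPTRG00000004338) encode chains of the CD3 complex that carries the receptor's signal. CD3E was between 0.241 CPM in 88A020 and 34.97 CPM in 4x0043 in the earlier group, with a median of 1.97, and between 0.308 in 554 and 24.9 in 529 in 2018, with a median of 2.06. Only 3 animals, 4x0043, 529 and 4x523 (24.6 CPM), stood above 5 CPM, the next being 4x0519 with 4.80, and the years overlapped over nearly their whole range. CD3D ran from 0.196 CPM in 438 to 19.2 in 4x0043 in the earlier group, with a median of 0.967, and from 0.0694 in Little_R to 11.5 in 529 in 2018, with a median of 0.703. The same 3 animals were highest, with 10.54 CPM in 4x523, followed by 4X0354 with 4.99. CD3D was under 1 CPM in 20 animals and CD3E in 10. Over all 38 animals CD3E averaged 4.02 ± 7.40 CPM (SD) and CD3D 2.08 ± 3.75.

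CD2 (ENSPTRG00000001157) is an adhesion molecule of T and NK cells that binds CD58 on other cells. It ran from 0.265 to 14.2 CPM in the earlier group, with a median of 1.37, and from 0.0694 in Little_R to 16.2 in 529 in 2018, with a median of 1.17. The highest animals were 529, 4x0043 and 4x523 (9.77 CPM), and the next, 4x0519, had 3.37. The mean was 2.11 ± 3.52 CPM (SD, n = 38), and 17 animals were under 1 CPM.

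LCK (ENSPTRG00000000479) encodes the kinase that acts first after the T cell receptor is engaged. Its level in the earlier group was 0.493 CPM in 95A014 at the lowest, 2.13 at the median and 36.9 in 4x0043 at the highest. In 2018 it was 0.530 in 4X0550, 2.61 at the median and 33.5 in 529. Little_R came next with 27.8 CPM, ahead of 4x523 with 23.9 and 4X0354 with 10.99, so 1 animal that was lowest of all for CD2 and CD3D was among the highest for LCK. The mean over 38 animals was 5.73 ± 9.03 CPM (SD), and the years overlapped.

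CD8A (ENSPTRG00000012159) encodes the alpha chain of the co-receptor of cytotoxic T cells. CD8A ran from 1.30 CPM in 88A020 to 58.9 in 4x0043 in the earlier group, with a median of 7.28, and from 1.69 in 4X0357 to 56.8 in 529 in 2018, with a median of 6.69. No animal was under 1 CPM. After 4x0043, 529 and 4x523 (41.4 CPM) came 4X0354 with 22.6 and 558 with 14.99. Its mean was 10.2 ± 13.4 CPM (SD, n = 38).

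GZMA (ENSPTRG00000016871) encodes a serine protease of cytotoxic granules. Its level ran from 0.241 CPM in 88A020 to 16.4 in 4x0043 in the earlier group, with a median of 2.46, and from 0.0694 in Little_R to 27.8 in 529 in 2018, with a median of 2.62. The second highest animal was 4X0354 with 17.8 CPM, ahead of 4x0043, and 4x523 was at 11.8. The mean was 4.19 ± 5.61 CPM (SD, n = 38). NKG7 (ENSPTRG00000011381) encodes a granule membrane protein of NK cells and cytotoxic T cells. NKG7 ran from 0.313 to 10.6 CPM in the earlier group, with a median of 2.56, and from 0.184 in 4X0550 to 18.3 in 529 in 2018, with a median of 2.61. It had the smallest SD relative to its mean of the 10 genes, with a mean of 3.60 ± 3.72 CPM (SD), and was the only one whose highest 3 animals did not include 4x0043, which ranked 11 with 4.85 CPM. Its highest animals after 529 were 4x523, 4X0354 (9.68 CPM), 4x0430 (8.36) and 558 (8.31).

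CCL5 (ENSPTRG00000046869) encodes a chemokine that activated cytotoxic T cells and NK cells secrete. It ran from 1.11 CPM in 88A020 to 69.9 in 4x523 in the earlier group, with a median of 5.76, and from 0.416 in Little_R to 69.3 in 529 in 2018, with a median of 7.69. Together with 4x0043 (64.6 CPM), 4x523 and 529 stood apart from the next animal, 4X0354 with 32.4. The mean was 12.2 ± 17.8 CPM (SD, n = 38).

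IL7R (ENSPTRG00000016790) encodes the receptor chain for interleukin 7, a survival signal of naive and memory T cells. It had the largest SD relative to its mean of the 10 genes, with a mean of 8.57 ± 20.99 CPM (SD, n = 38) beside a median of 2.20. In the earlier group it ran from 0.602 CPM in 88A020 to 120.1 in 4x0043, with a median of 1.73, and in 2018 from 0.533 in 4X0357 to 46.4 in 529, with a median of 2.59. The next animals were 570 with 33.8 CPM and Little_R with 30.2, well above 4x523 with 8.85.

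PTPRC (ENSPTRG00000001817) encodes CD45, a phosphatase on the surface of all leukocytes, macrophages and neutrophils included. PTPRC ran from 4.35 CPM in 456 to 95.8 in 4x0043 in the earlier group, with a median of 10.8, and from 1.75 in 4X0339 to 132.3 in 529 in 2018, with a median of 10.6. After those 2 animals came 4x0430 with 58.7 CPM, 4x0519 with 56.2 and 338 with 36.98. The mean was 19.5 ± 26.4 CPM (SD, n = 38), and no animal was under 1 CPM.

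**Figure D1:**
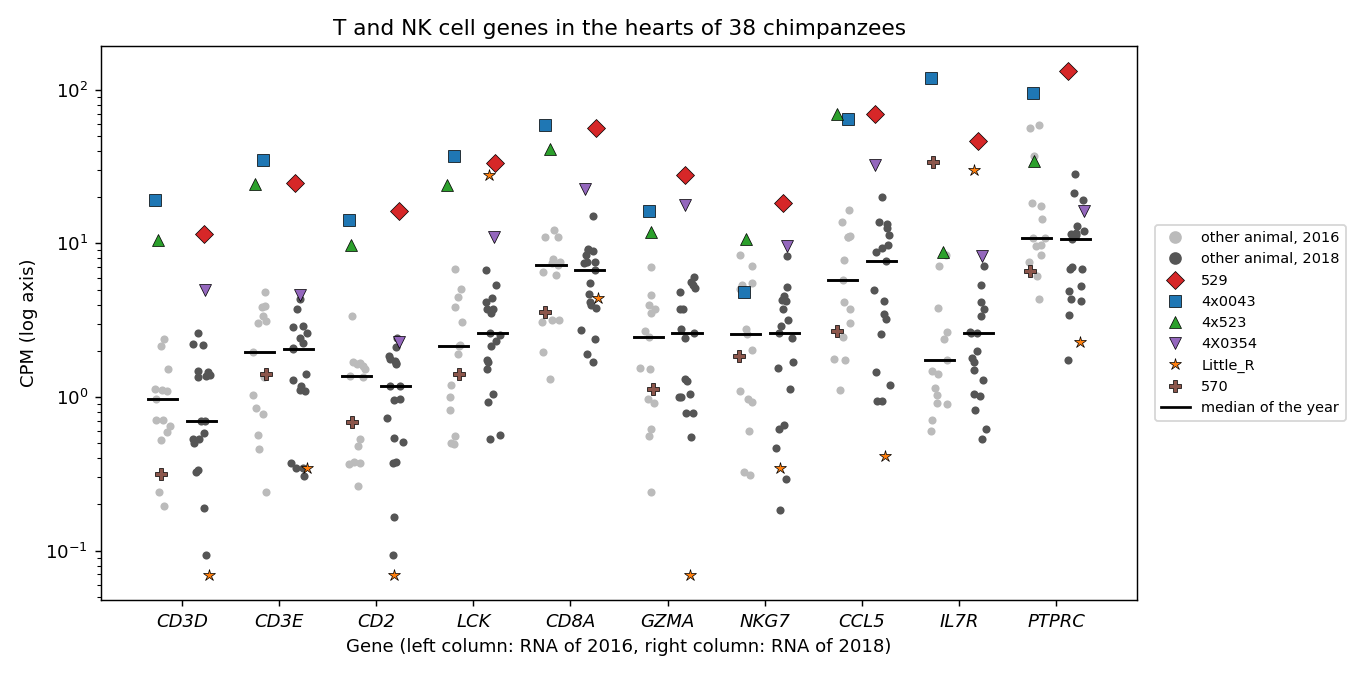
Level of each of the 10 T and NK cell genes in each of 38 animals, in CPM on a log axis, with the earlier group in the left column and 2018 in the right, a line at each group's median and 6 animals marked by symbol. The groups overlap for all 10 genes, and 4x0043, 4x523 and 529 are the 3 highest animals for CD2, CD3D, CD3E, CD8A and CCL5.

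Animal 529 was among the 3 highest animals for all 10 genes, 4x0043 for 9 and 4x523 for 6. These 3 animals together held 55.2% of the summed CPM of CD3E, 53.8% of IL7R, 52.1% of CD3D, 50.2% of CD2, 43.9% of CCL5, 43.3% of LCK, 40.4% of CD8A, 35.4% of PTPRC, 35.1% of GZMA and 24.7% of NKG7. Animal 529 was a male from Yerkes of the 2018 group (RIN 5.0), 4x0043 a female of 53 years from SNPRC (RIN 4.2) and 4x523 a male of 10 years from SNPRC (RIN 5.6), both of 1 extraction batch of the earlier group. Their libraries had 52.7% mitochondrial reads in 529, 31.5% in 4x0043 and 17.2% in 4x523. At the other end, 88A020 was among the 5 lowest animals for 9 genes, 4X0357 for 8, Little_R for 7, 554 for 6, 4X0550 for 5 and 4X0339 for 4.

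The high animals carried other cells' markers in different amounts, and the part of those cells in the member levels was not tested. The summed level of 9 B and plasma cell genes was 943.5 CPM in 4x0043, 848.3 in 529 and 223.9 in 4x523, against a median of 21.7 and a lowest value of 3.67 in 4X0550. JCHAIN, which joins secreted antibodies, was the most abundant of these, and none of the 9 was at 0 in all animals. The 12 macrophage and monocyte genes summed to 755 CPM in 4x523, 148.3 in 4x0043 and 105.3 in 529, against a median of 157.8, so 4x0043 and 529 were below the middle animal for this sum. The 9 neutrophil genes, led by S100A9, summed to 329.6 CPM in 529, the second highest of 38, to 121.1 in 4x523 and to 24.4 in 4x0043, against a median of 40.97. Animal 529 also had the third highest sums of mast cell genes (96.75 CPM) and fibroblast genes (6267 CPM). The 6 erythrocyte genes, led by HBB, summed to 7152 CPM in 529 and 1707 in 4x0043, against a median of 176.6, and the range over animals began at 0.510 in MD_And. The 10 cardiomyocyte genes, led by MYH7, summed to 55027 CPM in 529, 90901 in 4x523 and 99238 in 4x0043.

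Genes of the T cell receptor complex and its co-receptors peaked in the same animals. Their summed level over 12 genes was 198.2 CPM in 529, 119.8 in 4x0043 and 78.8 in 4x523, from 2.88 in 4X0357, with a median of 11.6. Animal 529 was the highest of 38 for 9 of these 12 genes, for 11 of 19 signalling genes downstream of the receptor, for 6 of 12 NK cell receptor genes and for 6 of 10 cytotoxic granule genes. It had 210.3 CPM of GNLY, a pore-forming granule protein, and 38.7 of GZMB, a granule protease. Animal 4x0043 was the highest for 8 of 16 leukocyte adhesion genes and 5 of 17 chemokine and chemokine receptor genes. It had 476.3 CPM of CXCR4, a homing receptor of lymphocytes, 50.5 of CCL19, 20.6 of its receptor CCR7 and 29.7 of GZMK. Animal 4x523 had the highest CXCL9, an interferon-induced chemokine, with 203.5 CPM. GZMB, CXCR4, CCL19, CCR7, GZMK and CXCL9 were named here after their values were seen.

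In Little_R and 570 the members came apart. Little_R had 1 read each of CD2, CD3D and GZMA and 5 of CD3E (0.347 CPM), the lowest CCL5 of all animals, and LCK and IL7R at 27.8 and 30.2 CPM. Its library was the smallest, with 14408012 reads on shared exons, so 1 read is 0.0694 CPM, and had 48.35% mitochondrial reads. It also had the highest FYN, a kinase related to LCK, with 107.6 CPM, the highest ETS1 with 316.1, GATA3 with 27.6 and SOCS1 with 19.7. Its cardiomyocyte sum of 13942 CPM was the lowest of all, and its fibroblast sum of 10511 CPM over 7 genes, led by DCN, and its lymphatic endothelial sum of 333.9 CPM over 5 genes, led by FLT4, were the highest. Animal 570 had 33.8 CPM of IL7R, 15.4 times the median, and 1.42 of CD3E, rank 22 of 38. It had the highest sum over 12 genes of the interleukin 7 and common gamma chain pathway, 695.5 CPM, with 209.4 of CISH, a feedback inhibitor of cytokine signalling, and 54.4 of STAT5B, a transcription factor of the same pathway. GATA3, CISH and STAT5B were chosen after their values were seen, and the part of other cells and of the Little_R library in the LCK and IL7R levels was not tested.

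**Figure D2:**
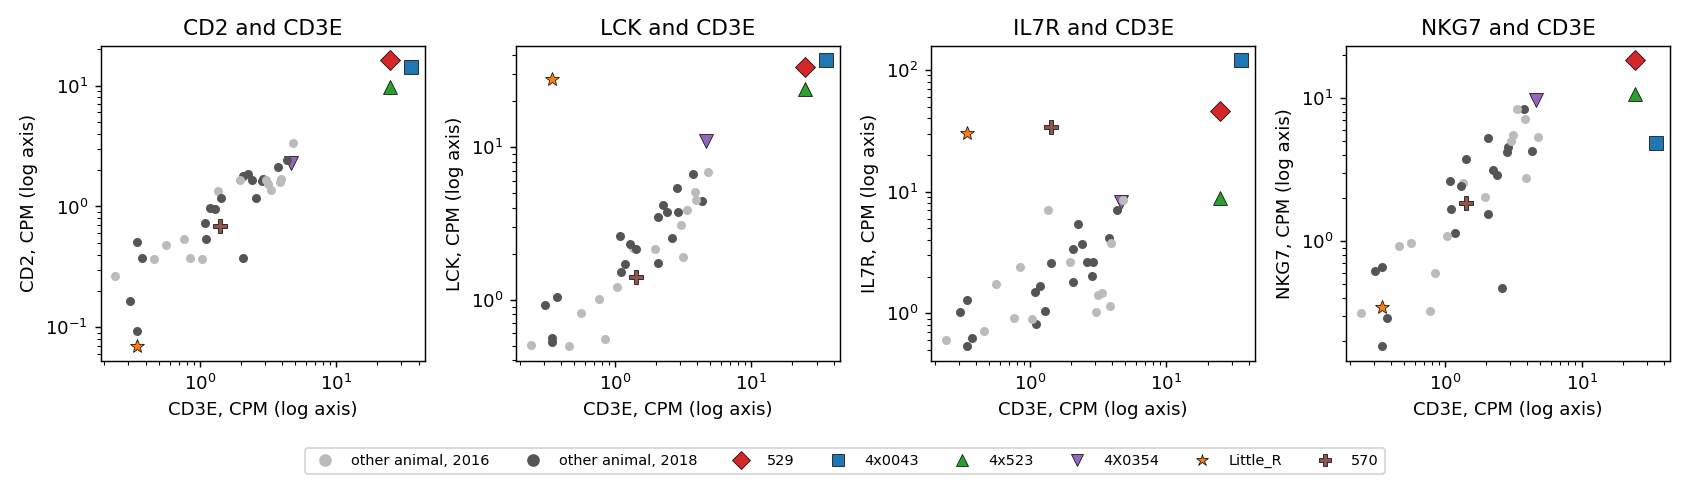
CD2, LCK, IL7R and NKG7 against CD3E in 38 animals, both in CPM on log axes, in light grey for the earlier group and dark grey for 2018, with 6 animals marked by symbol. Little_R lies far above the other animals of its CD3E level (0.347 CPM) for LCK and IL7R, and 570 does so for IL7R.

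PTPRC was high in 2 animals with high sums of myeloid markers. In 4x0430 it was 58.7 CPM, the macrophage and monocyte sum was 1083 CPM, the highest of all, and CD3E was 3.35. In 338 PTPRC was 36.98 CPM, the macrophage and monocyte sum 968.8 and the sum over 9 neutrophil genes 723.5, the highest of all, with 1.35 CPM of CD3E. Other animals did not follow this: 4x0519 had 56.2 CPM of PTPRC with a macrophage and monocyte sum of 157 and a neutrophil sum of 206, and 495 had 6.80 CPM, rank 28 of 38, with a macrophage and monocyte sum of 530.1. The part of myeloid cells in the PTPRC level was not tested. Animal 4x0430 also had the highest CD4, 27.2 CPM, the co-receptor of helper T cells that macrophages and monocytes carry too.

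Across animals the 10 genes varied together. Over the 45 pairs, Spearman's rho of log2 CPM ranged from 0.487 to 0.929 with a median of 0.825, and it was above 0 for all 45. All points share the library and its scaling, so these values are a description over 38 animals with no test. The median was 0.846 in the 17 animals of the earlier group, 0.831 in the 21 of 2018 and 0.785 without 4x0043, 4x523 and 529, a setting chosen after seeing the data. The closest pairs were GZMA and CCL5 (rho 0.929), CD3D and CD8A (0.927), GZMA and NKG7 (0.92) and CD2 and CD3E (0.915). IL7R was the least like the rest, with a median rho of 0.561 and its closest partner LCK at 0.718. Without Little_R and 570, a setting chosen after seeing the data, its rho ran from 0.595 to 0.823, and CD2 was the closest in place of LCK (0.759). LCK had a median rho of 0.902 in the earlier group and 0.695 in 2018, the year of Little_R. Over all 38 animals PTPRC had a median rho of 0.791 and LCK of 0.775. The values for CD2, CD3D, CD3E, CD8A, GZMA, NKG7 and CCL5 were 0.841 to 0.893.

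**Figure D3:**
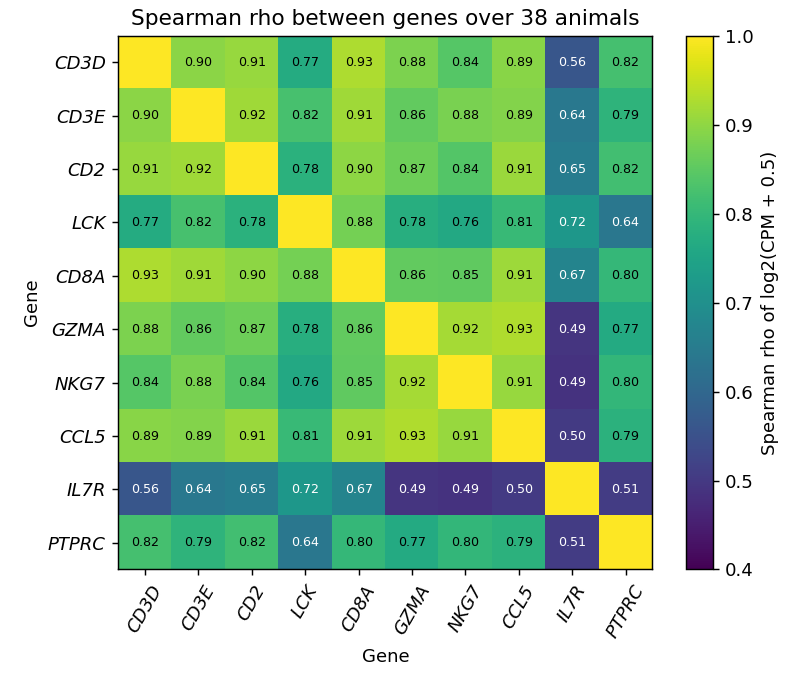
Spearman's rho of log2 CPM over 38 animals for each pair of the 10 T and NK cell genes. Values run from 0.487 to 0.929, and the row of IL7R holds the lowest.

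The gene outside the list most like each member, given here for 9 of the 10, was sought among 13051 genes over the 38 animals. It was CD96 for CD2 (rho 0.923) and the transcription factor BCL11B for CD3D (0.906). For CD3E (0.92) and for CD8A (0.93) it was CD6, from the T cell receptor and co-receptor list. For the granule genes it was the transcription factor TBX21 for GZMA (0.938) and the granule protease GZMB for NKG7 (0.953). It was CD247, the zeta chain of the receptor complex, for CCL5 (0.933) and the adhesion molecule CD48 for PTPRC (0.95). For IL7R it was CD79A, a chain of the B cell receptor complex, at 0.791. At these digits EOMES equalled CD96 for CD2, and another gene equalled CD79A for IL7R. Within the groups these values were 0.855 to 0.966 in the earlier group and 0.906 to 0.958 in 2018, apart from IL7R with CD79A, at 0.863 and 0.657. Against the mean of the 10 standardized levels, the most alike included RUNX3 (0.949), CTSW (0.944), EOMES (0.943), CD247 (0.933), TBX21 (0.932), CD6 (0.929), ITGAL (0.92), LY9 (0.919) and GZMB (0.918). Of these 9, LY9 alone stood on none of the gene lists used here.

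The summed levels of other lists tracked the members to different degrees, given as the median rho over the 10 members in 38 animals, with no test. It was 0.879 for the 12 receptor and co-receptor genes, 0.773 for the 16 adhesion and CD45 signalling genes, 0.696 for the 19 receptor signalling genes, 0.695 for the 12 NK cell receptor genes and 0.662 for the 10 granule genes. The 14 T cell transcription factor genes, led by ETS1, were at 0.513, the 17 chemokine genes, led by CXCL12, at 0.339, and the 12 interleukin 7 pathway genes, led by JAK1, at 0.0896. The last turned to -0.153 with TMM library sizes and to -0.00336 without 4x0043, 4x523 and 529. The authors' normalized scores cover 37 animals and fewer genes, and a list was taken there as the mean of its scores. In those scores the interleukin 7 pathway genes were at 0.243, over 10 genes. The chemokine genes were at 0.581 in those scores, over 9 genes, and at 0.203 without 4x0043, 4x523 and 529. Among markers of other cells, the highest were B and plasma cell genes with 0.54 (0.712 for IL7R), dendritic cell genes with 0.519 and lymphatic endothelial genes with 0.498. Lower values were found for fibroblast (0.381), erythrocyte (0.342), macrophage and monocyte (0.243), platelet (0.177), neutrophil (0.141), endothelial (0.0953) and mast cell genes (0.0444). The macrophage and monocyte sum was at 0.0797 in the earlier group and 0.447 in 2018, and it was closest to PTPRC, at 0.435. Within the earlier group and within 2018, signalling genes were at 0.882 and 0.583, interleukin 7 pathway genes at -0.125 and 0.267, platelet genes at -0.0368 and 0.34 and mast cell genes at -0.223 and 0.274, so the last 3 took opposite signs. The cardiomyocyte sum ran the other way, with a median rho of -0.304 and its lowest values of -0.575 for IL7R and -0.514 for LCK.

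The 2018 animals were compared with the earlier animals by an edgeR quasi-likelihood test over all genes, with sex as covariate, to see whether member levels moved with the extraction. The study states that some of its chimpanzees are close relatives, and all tests here took the animals as independent. Called means a Benjamini-Hochberg adjusted p under 0.05. Of 15392 genes tested 2433 were called (15.8%), 1713 higher in 2018 (11.1%) and 720 lower (4.68%), and 0 of the 10 members were. At an unadjusted p under 0.05 there were 4697 genes (30.5%) and again 0 members. DESeq2 called 2979 genes and 0 members, with 4917 genes (31.9%) and 1 member, CD3E, at an unadjusted p under 0.05. The median log2 change of the 10 members was -0.51, against -0.01 over all genes, and 9 of the 10 were negative. This direction was not stable: DESeq2 turned CD3D to 0.094, edgeR without TMM scaling turned LCK to 0.0026, and within the 21 Yerkes animals 9 of 10 members were positive.

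CD3E had the largest difference, -1.05 ± 0.57 (log2, SE, n = 21 and 17, adjusted p = 0.212), followed by CD3D at -0.85 ± 0.58 (0.325), IL7R at -0.77 ± 0.74 (0.505), PTPRC at -0.68 ± 0.47 (0.329) and CD2 at -0.57 ± 0.54 (0.496). The remaining values were -0.45 ± 0.43 for CD8A, -0.43 ± 0.54 for CCL5, -0.08 ± 0.56 for LCK, -0.06 ± 0.48 for NKG7 and 0.08 ± 0.52 for GZMA. Single animals decided them. Without 529, CD3E was at -1.58 (adjusted p = 0.0325) and PTPRC at -1.29 (0.0142), so 2 members were called among 2250 genes (14.7%). There 6 members, these and CD2, CD3D, CD8A and IL7R, had an unadjusted p under 0.05 beside 4555 genes (29.7%). Without 4x0043, 4x523 and 529, PTPRC alone had an unadjusted p under 0.05, beside 4426 genes (28.8%). Without 4x0043, CD2 was at 0.12, CD3D at 0.086, LCK at 0.69, CD8A at 0.11, IL7R at 0.33 and CCL5 at 0.12, and 7 members were positive. Without 4x523, LCK was at 0.39, NKG7 at 0.20 and CCL5 at 0.04. LCK was at 0.0084 to 0.03 without 4X0333, 4X0339, 4X0550, 554, 676 or 724, NKG7 at 0.0030 to 0.09 without 4X0333, 4X0339, 4X0357, 4X0550, 4x0025, 4x0430, 554 or Little_R, and GZMA at -0.24 without 529, -0.04 without 4X0354 and -0.01 without 623 or MD_And.

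The pathway genes around the members gave few calls between years. Of the tested receptor and co-receptor genes 0 were higher and 1 of 10 lower: CD4 fell by 1.73 ± 0.40 on the log2 scale (adjusted p = 0.00238), though within Yerkes alone it was at -1.16 (0.197). CD6 was at -0.18 ± 0.55. None of 17 signalling genes passed (2 at an unadjusted p under 0.05, 0 in DESeq2), with FYN at 0.10 ± 0.14 and ZAP70, the kinase after LCK, at 0.47 ± 0.50. LAT, the adaptor downstream of ZAP70, had 0 reads in all 38 animals, which allows up to 0.208 CPM at the lowest total and 0.0368 at the highest. None of 12 transcription factor genes passed (1 at an unadjusted p under 0.05, and GATA3 higher in DESeq2), with ETS1 at 0.09 ± 0.18. None of 10 NK cell receptor genes passed (0 at an unadjusted p under 0.05, 0 in DESeq2), with CD160 at 0.41 ± 0.24 and CD244 at 0.44 ± 0.47, nor did any of 9 granule genes (1 and 0), with SRGN at 0.12 ± 0.25 and GNLY at 0.90 ± 0.55. Without 529 the calls were 3 signalling, 1 transcription factor and 2 granule genes, all lower in 2018 and named further on. The median log2 changes of these lists were -0.35, -0.35, 0.05, 0.14 and -0.14.

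Of 12 interleukin 7 pathway genes 1 was higher and 1 lower. SOCS1, a feedback inhibitor of cytokine signalling, rose by 1.10 ± 0.38 (log2, adjusted p = 0.0436), and this call ended in 14 of the 38 leave-outs of 1 animal, with 0.68 (0.167) without Little_R. BCL2, a survival factor, fell by 0.70 ± 0.25 (0.0493), and its call ended in 25 leave-outs, with an adjusted p up to 0.137. Of 13 chemokine and receptor genes 1 was lower, S1PR1, the receptor by which lymphocytes leave lymph nodes and which endothelium also carries. S1PR1 fell by 0.53 ± 0.16 (0.0236) and was at -0.40 (0.069) without 570, and CXCL12 was at -0.49 ± 0.28. Of 15 adhesion genes 2 were lower. Among them ITGB2, the beta chain of leukocyte integrins, fell by 1.16 ± 0.38 (0.0319) and was past the threshold no longer without 338 (0.0647), 4x0430 (0.0789), 4x0519 (0.0538) or 4x523 (0.0587). Nor did these calls hold in Yerkes alone, where SOCS1 was at 0.63 (0.598), BCL2 at -0.72 (0.28), S1PR1 at -0.65 (0.135) and ITGB2 at -0.74 (0.506). Without animals with a virus note the adjusted p was 0.0783 for BCL2, 0.0645 for S1PR1 and 0.0821 for ITGB2, and without 537 and Little_R it was 0.275 for SOCS1, 0.0811 for BCL2 and 0.0644 for ITGB2. It was 0.0741 for S1PR1 and 0.0585 for BCL2 without TMM, 0.0739 for SOCS1 and 0.133 for BCL2 without 4x0043, 4x523 and 529, and for BCL2 also 0.0821 with RIN as covariate and 0.0645 with no filter. The medians of these 3 lists were -0.11, -0.61 and -0.62.

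Without 529 further list genes were called lower in 2018, all chosen after their values were seen. They were FYB1 at -1.51 (adjusted p = 0.00476), VAV1 at -0.92 (0.027) and SIT1 at -1.41 (0.0376) in receptor signalling, and TCF7 at -1.36 (0.0194) among transcription factors. They were also GZMK at -2.20 (0.016) and CST7 at -1.23 (0.0166) among granule genes, CXCR4 at -1.94 (0.00598) among chemokine receptors, and CD37 at -1.08 (0.0241) and SELPLG at -0.96 (0.049) among adhesion genes. Chosen in the same way, CTLA4, an inhibitory receptor of T cells, was called at 1.29 (0.0143) without 4x0043, and GATA3 at 1.13 (0.0495) without 4X0550. CD58, the partner of CD2, was called at 0.41 to 0.44 (0.0389 to 0.0488) without 295, 4X0267, 4X0339, 503 or 676.

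Macrophage and monocyte markers moved with extraction year beside this, and their part in the member values was not tested. Of 11 tested 8 were lower in 2018, with a median of -1.39. The complement genes C1QC and C1QB fell by 1.59 ± 0.33 (adjusted p = 0.000839) and 1.69 ± 0.37 (0.00145), the mannose receptor MRC1 by 1.46 ± 0.32 (0.00136) and CD14 by 0.99 ± 0.23 (0.0024). The list's most abundant gene was C1QA, none was at 0 in all animals, and its sum had a median of 249.4 CPM in the earlier group, from 110.8 to 1083, and 109.1 in 2018, from 44.2 to 530.1. The count was 7 without 4x0430 or without 4x523, in both cases through C1QA at -0.93 (0.0526) and -0.95 (0.0563), 9 without 537 through CD68 at -0.74 (0.0464), 7 without 4x0043, 4x523 and 529, 6 without animals with a virus note, and 1 in Yerkes alone. There the median was -1.26, with C1QC at -1.26 (adjusted p = 0.146), C1QB at -1.35 (0.175) and MRC1 at -1.60 (0.0816). C1QA and CD68 were chosen after their values were seen. For the other cells, 1 of 6 endothelial genes was higher (EGFL7, 1.52 ± 0.32, adjusted p = 0.00112), 1 of 5 lymphatic genes (FLT4, 1.42 ± 0.35, 0.00423) and 1 of 2 platelet genes (ITGA2B, 1.195 ± 0.35, 0.0154). In Yerkes alone these 3 were at 1.29 (0.139), 0.96 (0.151) and 0.92 (0.437), and ITGA2B was at 1.02 (0.0548) without 4x0043, 4x523 and 529. None passed of 5 B and plasma cell genes (1 at an unadjusted p under 0.05), 6 neutrophil genes (1), 3 dendritic genes (2), 4 mast cell genes (2), 2 erythrocyte genes (0), 10 cardiomyocyte genes (0) or 7 fibroblast genes (0). DESeq2 called the dendritic gene CLEC10A lower, the mast cell gene HDC higher and 0 in the other 5 of these lists. Without 529, CD79A at -2.999 (adjusted p = 0.00937), MS4A1 at -3.24 (0.012) and the neutrophil receptor FCAR at -1.50 (0.0274) were called, and in the other direction the plasma cell gene MZB1 was called at 2.05 (0.00619) without 4x0043, 4x523 and 529. Further calls were BATF3 at 1.55 (0.0171) and HDC at 1.26 (0.05, before rounding under the threshold) without 570. CLEC10A was called at -0.92 to -0.97 without 4x0043, 4X0095, 4X0267, 537, 570, 676 or 88A020. These genes lie outside the rule for names and were picked with their values known.

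The change with RIN, fitted by edgeR with year and sex as covariates, was called for 0 of 15392 genes (0%) and 0 members. At an unadjusted p under 0.05 there were 2173 genes (14.1%) and 0 members. DESeq2 called 205 genes and 0 members, with 2527 genes (16.4%) and 3 members, CD3D, GZMA and CCL5, at an unadjusted p under 0.05. Without 558 alone edgeR called 144 genes, without 495 17, without 476 2 and without 4X0095 or 4X0550 1 each, with 0 members in any. All 10 member slopes were negative, from -0.36 ± 0.19 log2 per RIN unit for CD3D (adjusted p = 0.399) to -0.10 for NKG7, with a median of -0.24 against 0.0043 over all genes. Within the earlier group alone the slopes were steeper, -1.31 for CD3D (adjusted p = 0.112), -1.16 for CD3E, -1.06 for LCK and -0.96 for CCL5. There 7 members had an unadjusted p under 0.05 (these 4, CD2, CD8A and GZMA), beside 1835 of 13941 genes (13.2%), and 0 members were called. Within 2018 alone CD3E was at 0.10, LCK at 0.30, CD8A at 0.040 and IL7R at 0.42, and CD2 and CD3D did not pass the filter. Without 4x0043, the animal with the lowest RIN of the earlier group, CD2 was at 0.041, CD3E at 0.011, LCK at 0.23, IL7R at 0.45 and PTPRC at 0.023. Without 4x0043, 4x523 and 529, 1 member, IL7R at 0.39, had an unadjusted p under 0.05, beside 2460 genes (16%).

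The difference of the RIN slope between years, tested by an edgeR interaction term, was called for 0 of 15392 genes (0%) and was not run in DESeq2. At an unadjusted p under 0.05 there were 945 genes (6.14%) and 6 of the 10 members, all with the higher slope in 2018 (641 genes, 4.16%). These were CD3D at 1.401 (log2 per RIN unit, p = 0.00116), LCK at 1.35 (0.0026), CD3E at 1.27 (0.00467), IL7R at 1.02 (0.0462), CD2 at 0.92 (0.0306) and CD8A at 0.87 (0.00849), and no member's adjusted p was below 0.655. Without 4x0043 alone 0 members were left at that threshold, beside 600 genes, and the median over members went from 0.90 to 0.33, with PTPRC at -0.53 and IL7R at -0.72. Without 4x523 NKG7 was at -0.043.

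Depth, mitochondrial share and RIN were also correlated with each member over the 38 animals, 30 relations in all, by a two-sided permutation test of Pearson's r on log2 CPM and of Spearman's rho. None had an adjusted p under 0.05, the lowest being 0.866 for r and 0.967 for rho. Values of r ran from -0.181 to 0.0914 for RIN, from -0.323 to 0.102 for the log10 total and from -0.203 to 0.192 for the mitochondrial share. Without 4X0339 and 4X0357, r with RIN was negative for all 10 members, from -0.326 for GZMA to -0.0283 for IL7R. Without the 3 highest animals it ran from -0.101 for GZMA to 0.31 for IL7R. These values and tests take the years together, and within them the relations differed. For the mitochondrial share r was negative for all 10 members in the earlier group, from -0.648 for NKG7 to -0.228 for IL7R. It was positive for all 10 in 2018, from 0.0245 for PTPRC to 0.458 for LCK. Spearman's rho in 2018 was negative for CD2 (-0.0195) and PTPRC (-0.165). For RIN r ran from -0.479 to -0.0413 in the earlier group and from -0.133 to 0.221 in 2018. For the total it ran from -0.11 to 0.406 and from -0.531 to 0.0154. The values within years were not tested. Over all 38 animals the largest r was that of IL7R with the total (r = -0.323, permutation p = 0.048, rho = -0.157, permutation p = 0.343). This r was -0.217 without the 2 farthest animals, 558 and Little_R, and -0.11 within the earlier group and -0.494 within 2018.

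Variability between animals was measured as the ln overdispersion of a negative binomial fit, minus its trend on the mean over 13110 genes. Genes with at least 6 CPM in 1 animal were fitted, and CD2, CD3D and CD3E reached this in 4x0043, 4x523 and 529 alone, so their values depend on the animals that let them in. The other 7 members lay above the trend, as did 5896 of all genes, and the median over all genes was -0.11. IL7R was at 2.19, with 1.53% of genes ranked above it, CCL5 at 2.02 (2.22%), PTPRC at 1.94 (2.68%), LCK at 1.55 (5.48%), CD8A at 1.496 (6.13%) and CD3E at 1.37 (7.70%). GZMA was at 1.18 (10.4%), NKG7 at 0.938 (15.4%), CD3D at 0.864 (17.3%) and CD2 at 0.770 (19.5%). The standard error of the ln overdispersion was between 0.192 and 0.207. Without 4x0043, 4x523 and 529, a setting chosen after seeing the data, CD8A was at 0.479, LCK at 0.812, GZMA at 0.678, NKG7 at 0.712, IL7R at 1.26, CCL5 at 1.32 and PTPRC at 1.38, and CD2, CD3D and CD3E were below 6 CPM in all animals and had no value. CD2 was at 0.453 without 529 and CD3D at 0.445 without 4x0043.

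**Figure D4:**
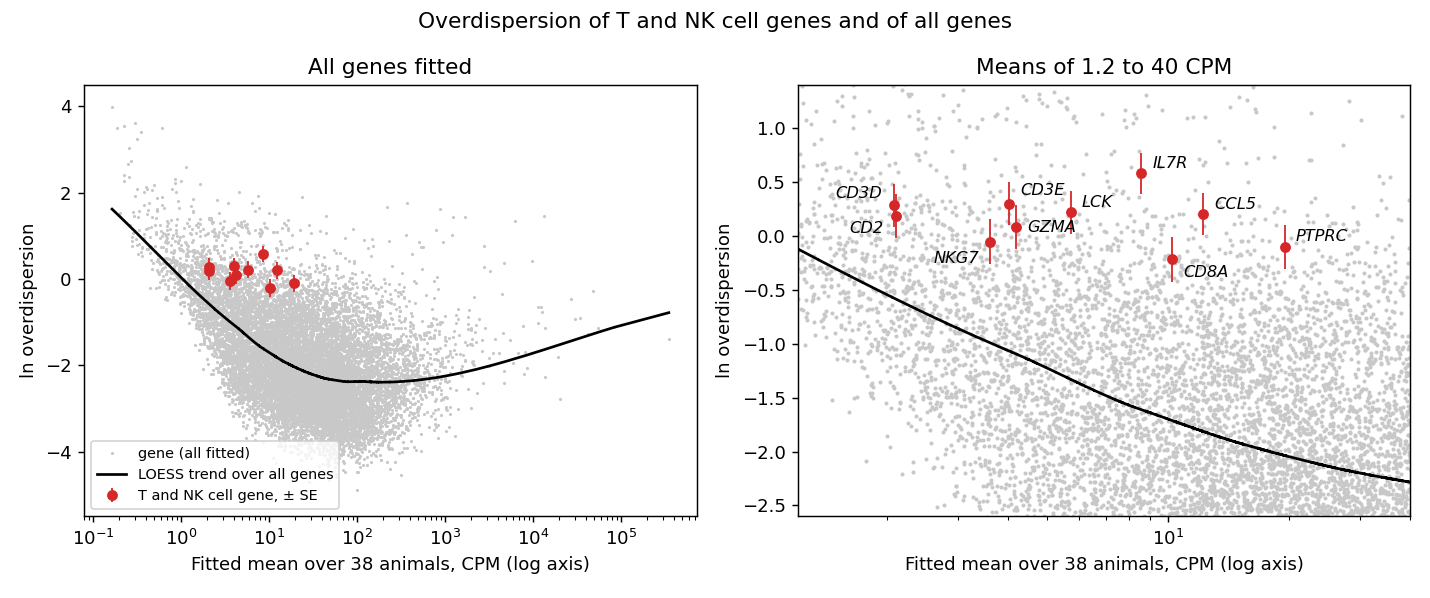
ln overdispersion against the fitted mean (CPM, log axis) for 13110 genes in grey, with the LOESS trend as a line and the 10 T and NK cell genes in red with their SE, for all means at left and for means of 1.2 to 40 CPM at right. The points lie above the trend, and those of CD2, CD3D and CD3E passed the filter through 4x0043, 4x523 and 529 alone.

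Other lists of immune and tissue genes lay above the trend as well. The median was 2.08 for 7 fibroblast genes, 1.69 for 11 macrophage and monocyte genes, 1.64 for 11 chemokine genes, 1.59 for 8 B and plasma cell genes, 1.25 for 8 granule genes and 0.924 for 15 adhesion genes. It was 0.825 for 8 receptor and co-receptor genes, 0.723 for 12 transcription factors, 0.588 for 10 interleukin 7 pathway genes, 0.584 for 10 cardiomyocyte genes, 0.467 for 6 NK cell receptor genes and 0.372 for 15 signalling genes.

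Housing center, sex and virus notes are described without a test. Of the earlier group 9 animals came from Yerkes and 5 from SNPRC, and of 2018 12 and 8. CD3E had a median of 3.35 CPM in the 13 SNPRC animals and 1.42 in the 21 Yerkes animals, NKG7 of 4.85 and 2.56, PTPRC of 18.3 and 10.8, and CCL5 of 12.7 and 5.76. Over both years together every member's median was higher at SNPRC, and every member's ranges overlapped. Within 2018 this did not hold for all. The 8 SNPRC animals of 2018 had lower medians than the other 13 for CD8A, GZMA, NKG7, PTPRC, IL7R and CCL5. Their medians were higher for CD2, CD3D, CD3E and LCK. The 5 earlier SNPRC animals included 4x0043 and 4x523. Females and males had CD3E medians of 1.75 and 2.02 CPM, GZMA medians of 2.75 and 1.54 and PTPRC medians of 11.6 and 10.1, again with overlap. The study's sample table notes hepatitis B or C virus for 7 animals of 2018 and exposure to HIV with a negative test for 1. All 8 were from SNPRC, which had no other animal in 2018, so virus note and center cannot be told apart there. These 8 animals and the other 13 of 2018 had medians of 2.34 and 1.42 CPM for CD3E, 6.56 and 6.69 for CD8A, 1.92 and 2.62 for GZMA and 7.40 and 7.69 for CCL5. The ranges overlapped for all 10 genes. Animal 529, which had no note, lay above all 8 for each gene, and Little_R did so for LCK and IL7R.

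On the chromosome, some members are neighbours. In the RefSeq annotation of another assembly (NHGRI_mPanTro3-v2.0), used for names, order and overlaps, CD3D lies between CD3E and CD3G, the third CD3 chain, CD8A next to CD8B, the other co-receptor chain, and GZMA next to GZMK, another granule protease. The CD3E model overlaps 13 other gene models there, and those of PTPRC and CCL5 overlap 1 each, while the other 7 members overlap none. Overlaps in the annotation that the counts rest on were not checked. Where genes overlap there, their reads cannot be told apart, since the strand counted is not stated.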

How the data were processed

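The authors aligned reads with STAR 2.6.1b to Pan_tro_3.0 with Ensembl 95 genes and deposited a count per annotated gene, a count per gene over orthologous exons (featureCounts 1.6.3) and a normalized score per gene. Symbols for 18040 of these identifiers came from a table of gene names. CPM used the orthologous exon total, log2 a pseudocount of 0.5. The 10 members and all gene lists were chosen with earlier results of these data known. Tests used edgeR 4.0.16 (TMM, filterByExpr, robust quasi-likelihood, limma 3.58.1), DESeq2 1.42.0, MASS 7.3.60.0.1 (genes with at least 6 CPM in 1 animal, LOESS span 0.75), R 4.3.3, Python 3.11.15, numpy 2.4.6, pandas 2.3.3, scipy 1.17.1 (100000 permutations) and matplotlib 3.10.9. Named genes are the members, from each list up to 4 called genes with the smallest p or else the highest means until 2, the gene most like each member and the 10 most like their mean. Alternatives changed the tool, scaling, filter, threshold, covariates, animals, LOESS span and pseudocount. FCGR3A, XCL1, GZMH, S1PR5 and CLDN5 had no identifier and JAK3 had 2. The human count table and 52 per-sample columns were not used. Counting errors and limits cover counting only, and the strand column is not stated, so overlapping genes cannot be told apart.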

Additional observations from a re-analysis of the deposited data

How the results depend on the processing

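Over the alternatives other than leaving out 1 animal, 73 of the members' values for 2018 against the earlier group kept their direction and their side of the threshold and 17 turned, 67 RIN slopes kept theirs and 11 turned, and 11 slope differences kept theirs and 9 turned. For 2018 against the earlier group, log2 turned to 0.094 for CD3D with DESeq2, to 0.0026 for LCK without TMM and to 0.047 for NKG7 without 537 and Little_R. It turned to 0.31 for LCK and 0.063 for NKG7 without animals with a virus note, and in Yerkes animals alone to 0.65 for CD2, 0.83 for CD3D, 0.38 for CD3E, 1.11 for LCK, 0.63 for CD8A, 0.71 for NKG7, 0.25 for PTPRC and 0.86 for CCL5. Without 4x0043, 4x523 and 529, chosen after seeing the data, it turned to 0.24 for CD3D, 0.77 for LCK, 0.089 for CD8A and 0.26 for CCL5. RIN slopes then turned to 0.16 for CD2, 0.0037 for CD3D, 0.091 for CD3E, 0.25 for LCK, 0.025 for CD8A, 0.10 for PTPRC and 0.39 for IL7R. Slope differences then turned to -0.43 for CD2, -0.22 for CD3E, -0.10 for LCK, -0.035 for CD8A, -0.11 for GZMA, -0.28 for NKG7, -0.61 for PTPRC, -0.74 for IL7R and -0.35 for CCL5. In 2018 alone, RIN slopes turned to 0.10 for CD3E, 0.30 for LCK, 0.040 for CD8A and 0.42 for IL7R. Leaving out 1 animal gave year differences of -0.52 to 0.69 for LCK, -0.38 to 0.20 for NKG7, -0.24 to 0.45 for GZMA, -1.15 to 0.12 for CD2, -1.22 to 0.086 for CD3D, -0.80 to 0.11 for CD8A, -1.34 to 0.33 for IL7R, -0.81 to 0.12 for CCL5, -1.58 to -0.24 for CD3E and -1.29 to -0.36 for PTPRC, with 0 to 2 members called. It gave RIN slopes of -0.34 to 0.041 for CD2, -0.41 to 0.011 for CD3E, -0.29 to 0.23 for LCK, -0.23 to 0.023 for PTPRC and -0.38 to 0.45 for IL7R, and, chosen after seeing the data, slope differences of -0.53 to 0.38 for PTPRC, -0.72 to 1.57 for IL7R and -0.043 to 0.35 for NKG7. Genes called by year numbered 3704 without a filter, where more genes were tested, 244 in Yerkes alone, where there were fewer animals, and 1179 at a threshold of 0.01. Genes called by RIN numbered 205 with DESeq2, 2 without TMM, 2 without a filter, 1 at a minimum of 6 CPM, 12 in the earlier group alone and 0 to 144 leaving out 1 animal. Dispersion moved in 2018 alone to 0.557 for CD2, 0.442 for CD3D, 0.866 for CD3E, 1.34 for LCK, 1.24 for CD8A and 1.59 for IL7R. In the earlier group alone it moved to 1.09 for CD2, 1.36 for CD3D, 2.09 for CD3E, 2.08 for LCK, 2.21 for CD8A, 2.40 for PTPRC, 3.08 for IL7R and 2.64 for CCL5. Without 4x0043, 4x523 and 529 it moved to 0.812 for LCK, 0.479 for CD8A, 0.678 for GZMA, 0.712 for NKG7, 1.38 for PTPRC, 1.26 for IL7R and 1.32 for CCL5. Leaving out 1 animal gave dispersions of 0.453 to 0.831 for CD2, 0.445 to 0.926 for CD3D, 1.02 to 1.44 for CD3E, 1.31 to 1.63 for LCK, 1.24 to 1.598 for CD8A, 0.947 to 1.24 for GZMA, 1.70 to 2.02 for PTPRC and 1.58 to 2.27 for IL7R. The other 56 dispersions held within 1 SE. The median of 45 pairwise rho was 0.679 in the authors' normalized scores, which cover 37 animals. A list was the mean over its genes in those scores, so animals, summary and, for some lists, the genes differ from the main values. In those scores the members' rho was 0.411 with dendritic (2 genes), -0.0846 with endothelial (6) and 0.245 with erythrocyte genes (1). It was 0.291 with fibroblast (7), 0.326 with lymphatic (5), 0.18 with mast (2) and 0.0984 with platelet genes (1). There it was 0.75 with transcription factor (10 genes), 0.581 with chemokine (9) and 0.243 with interleukin 7 pathway genes (10). With TMM library sizes it was -0.082 with endothelial, 0.293 with fibroblast, 0.13 with macrophage and monocyte, -0.0442 with mast, 0.0529 with neutrophil and 0.0814 with platelet genes. The r of CD3E with the total was 0.0094 with those sizes. Without 537 and Little_R the members' rho was 0.603 with dendritic genes. Without 4x0043, 4x523 and 529 it was 0.416 with B and plasma cell, 0.185 with erythrocyte, 0.29 with fibroblast, 0.0742 with neutrophil and 0.107 with mast cell genes. Where no cause is named, the cause was not tested. CD2, CD3D and CD3E had no dispersion without those 3 animals, and CD2 and CD3D no RIN slope in 2018 alone. The planned level from the orthologous exon table was not run, since that table carries no symbols for its genes. At the lowest total a level of 1 CPM rests on 14.4 counts, and the 20 animals under 1 CPM of CD3D had 1 to 40 counts, so small differences among them were hardly detectable at this depth.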

Other observations

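B and plasma cell genes were high in 4x0043 and 529, the animals with the highest sums of the 10 members, but not in all animals with high sums. After 4x523, the next in member sum were 4X0354, 4x0519 and 4x0430, with 22.75, 21.64 and 7.275 CPM of the 9 B and plasma cell genes, and 4X0333 had 556.2 CPM of these at a member sum of 25.99. Animal 4x0043 was the highest of 38 for 7 of the 9 genes of that list, with 69.6 CPM of MS4A1, a B cell surface protein, and 72.7 of CD79A, a chain of the B cell receptor complex. Animal 529 had the highest JCHAIN, 774 CPM, which plasma cells use to join antibodies. It was also the highest for 5 of 6 erythrocyte genes, with 7098 CPM of HBB, a haemoglobin chain, and had 73.2 CPM of CCL21, a chemokine of lymphatic endothelium. These genes and animals were chosen after their values were seen.

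In 338 the neutrophil genes S100A8 and S100A9 stood at 287.8 and 377.1 CPM, and 5 of 12 macrophage and monocyte genes were at their highest. Animal 4x0430 was the highest for 6 of these 12, and had 33.2 CPM of PRF1, the perforin of cytotoxic granules, and 72.1 of CX3CR1, a chemokine receptor of monocytes and cytotoxic lymphocytes. Animal 4x0519 had the highest CSF3R, a receptor of neutrophils, with 52.2 CPM. Animal 570 had the highest S1PR1, with 84.8 CPM, and 85.6 of the interferon-induced chemokine CXCL10. Animal 4X0354 had the highest CD160, with 25.2 CPM, and KLRF1, with 4.39, both receptors of NK cells. These genes and animals, too, were chosen after their values were seen.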
